A study of Mus musculus with 24 samples.

Results

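Chromatin accessibility was examined at 7 genes that encode transcription factors of the myeloid lineage: Spi1, Cebpa, Cebpb, Cebpd, Cebpe, Irf8 and Gfi1. A counted region was taken for one of these genes where it overlapped the gene body, or where the nearest end of a protein-coding gene within 50 kb was an end of that gene. By this rule 12 of the 13910 regions counted in the study belonged to the 7 genes, and each gene had at least 1 region. The assay was ATAC-seq. Its enzyme, the transposase Tn5, cuts and tags DNA where chromatin is open, so that the count over a region rises with its accessibility. Marrow of WT CD45.1 donor mice was transplanted into young CD45.2 recipients that were either WT or of a line labelled IκB–, whose genetic change the labels do not describe. After 13 to 15 weeks, 500 to 1500 donor cells per sample were sorted from marrow of the femur and tibia as LT-HSC (here HSC), MPP2, MPP3 or MPP4, so that all profiled cells carried the WT donor genotype and only the host differed. With 2 recipient types and 4 subsets there were 8 groups of 3 libraries. In WT MPP3, replicates 2 and 3 were apart by no more than sampling noise gives, so they were summed and counted once, which left 23 replicates. The labels do not say whether replicates came from separate recipients, so p-values measure the spread between these samples.

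Myeloid cells arise from multipotent progenitors under a small set of transcription factors. Spi1 encodes PU.1, an ETS family factor needed for the macrophage and granulocyte lineages. Cebpa, Cebpb, Cebpd and Cebpe encode CCAAT/enhancer binding proteins: C/EBPα is needed for the step from multipotent to granulocyte-monocyte progenitors, C/EBPβ serves emergency granulopoiesis, C/EBPδ is an acute-phase factor induced by inflammatory signals, and C/EBPε acts late in granulocyte maturation. Irf8 encodes an interferon regulatory factor of monocytes and dendritic cells, and Gfi1 a zinc finger repressor of the neutrophil lineage. MPP3 is the progenitor class described as myeloid-biased, MPP2 as biased to megakaryocytes and red cells, and MPP4 as lymphoid-primed.

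Regions are named here by gene and numbered along the chromosome, with coordinates in mm10, the build in the submitters' processing notes, and gene ends from a RefSeq table of GRCm38.p6. That table has no exons, so positions are given relative to gene ends and, where a RefSeq promoter entry gave the strand, to the start site. Spi1 region 1 (chr2:91082997-91083188) lay inside the annotated body, 623 bp from its nearest end, and Spi1 region 2 (chr2:91096594-91096835) began 13406 bp further on, also inside the body. The Cebpa region (chr7:35119022-35119411) spanned the start site. Of the 4 Cebpb regions, region 2 (chr2:167688799-167689149) spanned the start site, while region 1 (chr2:167680015-167680247) was centred at -8784 bp, region 3 (chr2:167697905-167698110) at 9092 bp and region 4 (chr2:167723781-167724018) at 34984 bp from it. Cebpd region 1 (chr16:15887035-15887235) ended 51 bp outside the gene, and Cebpd region 2 (chr16:15887379-15887997) lay inside it. The Cebpe region (chr14:54705829-54706176) was 4187 bp outside its gene. The Irf8 region (chr8:120736188-120736382) spanned the start site, and the Gfi1 region (chr5:107698989-107699189) lay 17466 bp outside the gene, with no counted region on the Gfi1 promoter. Another 11 regions lay within 50 kb of an end of one of the 7 genes but nearer to a different gene, and were not members.

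**Figure D1:**
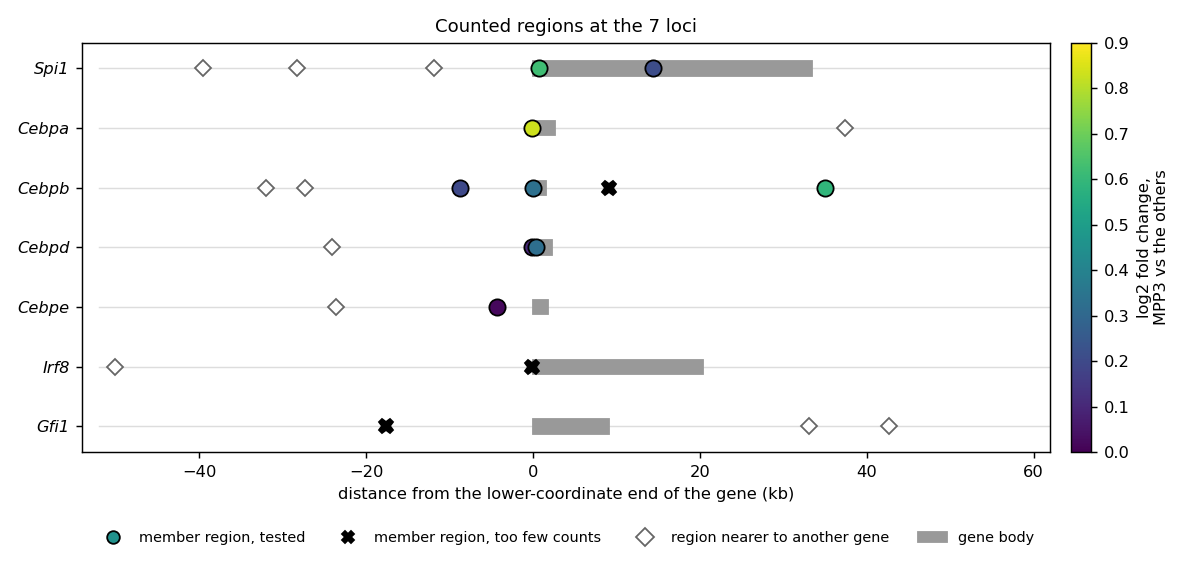
Counted regions at the 7 loci, by distance in kb from the lower-coordinate end of each gene body (grey bar). Circles are the 9 member regions tested, coloured by log2 fold change of MPP3 against the other subsets, crosses the 3 with too few counts, and diamonds the 11 regions nearer to another gene. The Cebpa region at the start site has the highest value, 0.83, and the 2 Cebpd regions overlap as drawn.

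The promoters of Cebpa, Cebpb and Irf8 are shown because counted regions cover their start sites and one of them carries the clearest difference between subsets. Each RefSeq sequence (GRCm38.p6, plus strand, 5′ to 3′) runs from 250 bases before the start site to 50 after. The Cebpa window is chr7:35119043-35119342, all 300 bases of which fall in the counted region. The Cebpb window is chr2:167688665-167688964, with 166 bases inside region 2, and the Irf8 window is chr8:120736108-120736407, with 195 bases inside its region. Capitals mark matches, on either strand, to 6 motifs: TTGCNNAA (C/EBP), GAGGAAGT (PU.1), GAAANNGAA (IRF), the NF-κB consensus, TTCNNNGAA (the motif of STAT factors), and the letters TATAAA of the core promoter box that bears their name. The last 2 were added, and the IRF and NF-κB forms settled, after the sequences had been read; a looser NF-κB form tried first had matched the Cebpb window. The STAT motif is its own reverse complement.
Cebpa promoter: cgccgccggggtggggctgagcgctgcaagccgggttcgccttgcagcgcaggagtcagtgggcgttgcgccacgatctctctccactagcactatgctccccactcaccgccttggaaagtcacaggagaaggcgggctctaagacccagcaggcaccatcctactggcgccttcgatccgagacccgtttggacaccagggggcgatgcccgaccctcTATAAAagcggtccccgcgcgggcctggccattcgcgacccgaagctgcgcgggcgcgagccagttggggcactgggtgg
Cebpb promoter: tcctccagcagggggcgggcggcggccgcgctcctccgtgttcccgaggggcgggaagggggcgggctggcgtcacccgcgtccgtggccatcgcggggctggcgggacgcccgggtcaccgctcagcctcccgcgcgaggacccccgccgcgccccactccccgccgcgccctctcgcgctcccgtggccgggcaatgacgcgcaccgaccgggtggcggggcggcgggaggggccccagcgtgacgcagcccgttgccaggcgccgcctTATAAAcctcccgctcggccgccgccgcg
Irf8 promoter: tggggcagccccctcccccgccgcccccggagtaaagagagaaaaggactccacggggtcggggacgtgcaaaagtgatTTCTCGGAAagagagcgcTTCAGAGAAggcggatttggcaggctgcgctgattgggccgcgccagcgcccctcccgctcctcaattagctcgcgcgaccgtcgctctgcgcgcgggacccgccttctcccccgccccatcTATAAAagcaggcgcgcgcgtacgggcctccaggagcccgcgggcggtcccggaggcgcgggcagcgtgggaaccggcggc

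All 3 promoters held TATAAA, at -30 in Cebpa, at 21 in Cebpb and at -31 in Irf8 (first base, counted from the start site), as did 13.6% of 32851 promoters of this length. Irf8 had STAT matches at -171 and -153, against 8.3% of promoters with any; as background, Irf8 is a known interferon target. None of the 3 windows matched the C/EBP, PU.1, IRF or NF-κB motifs, which occur in 10.8%, 3.2%, 8.56% and 8.46% of promoters. Gfi1 has 2 promoter entries, not printed because no counted region covers them; one of them had a C/EBP match at -143 and an NF-κB match at -71. All 3 were rich in G and C, with 67.3% and 29 CG pairs in Cebpa, 80.7% and 50 in Cebpb, and 70% and 38 in Irf8, against medians of 52.7% and 7 over all promoters. A match describes the letters only.

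Depth was low. Total counts per library ran from 121599 to 255584 in HSC, 146732 to 690277 in MPP2, 292114 to 963699 in MPP3 and 140166 to 365067 in MPP4, so single values below rest on few reads: the mean count of a member region per replicate was between 5.65 (Gfi1) and 25.1 (Cebpa). The limits given for a count of 0 account for counting error alone, because reads copied by PCR are not separate molecules. Of the genes behind the sorting gates, the region in Slamf1, which encodes CD150, was lower in MPP3, gated as CD150–, than in MPP2, gated as CD150+ (log2 fold change -2.45 ± 0.61 SE, adjusted p = 0.00691, edgeR). HSC, for which the protocol also gives CD150–, stood at 22.4 ± 17.6 CPM (SD, n = 6) against 2.95 ± 3.77 (n = 5) in MPP3, and is used under its label. The 3 Flt3 regions together had 173 ± 65 CPM in MPP4, gated as Flt3+, and 90.3 ± 30.3 to 115 ± 25.3 in the Flt3– subsets, but MPP4 did not pass the test against HSC (adjusted p = 0.0606, edgeR on summed regions). No Flt3 region was called between MPP3 and MPP4. The one with the smallest p had 33.8 ± 10.2 CPM (SD) in MPP3 and 61.1 ± 16.2 in MPP4 (log2 fold change -0.81 ± 0.26 SE, edgeR adjusted p = 0.999). No counted region belonged to Cd48 or Ly6a (Sca1), and those marks could not be checked.

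Levels are in CPM, counts per 1000000, on library sizes scaled by TMM (trimmed mean of M-values). Differences are log2 fold changes from one edgeR quasi-likelihood fit of the 8 group means over 13325 regions, and a region is referred to as called where its Benjamini-Hochberg adjusted p over all of these was under 0.05. In bulk samples, fewer cells with an open region and less opening per cell cannot be told apart. Of the 12 member regions 9 had enough counts to be tested; Cebpb region 3, Irf8 and Gfi1 did not.

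The first comparison asked whether regions of myeloid factor genes were more accessible in MPP3 than in the other subsets. The promoter of Cebpa was more open in MPP3, by 1.78-fold against the mean of HSC, MPP2 and MPP4 (log2 fold change 0.83 ± 0.17 SE, 95% interval 0.49 to 1.17, adjusted p = 0.00358, edgeR). It was 2.37-fold higher than in HSC and 2.21-fold higher than in MPP2, while no difference from MPP4 was detected. Spi1 region 1 was higher in MPP3 than in MPP2, and no other member region was called between MPP3 and any subset. Against the mean of the others 1 of 9 tested regions was called, where 2.69% of all regions were. All 9 estimates were positive, between 0.02 and 0.83, with a median of 0.32 against 0.01 over all regions. Those of Cebpe and Cebpd region 1 changed sign in some other settings. The regions not tested had -0.32 (Irf8), 0.29 (Gfi1) and 0.34 (Cebpb region 3) in a fit without the count filter.

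**Figure D2:**
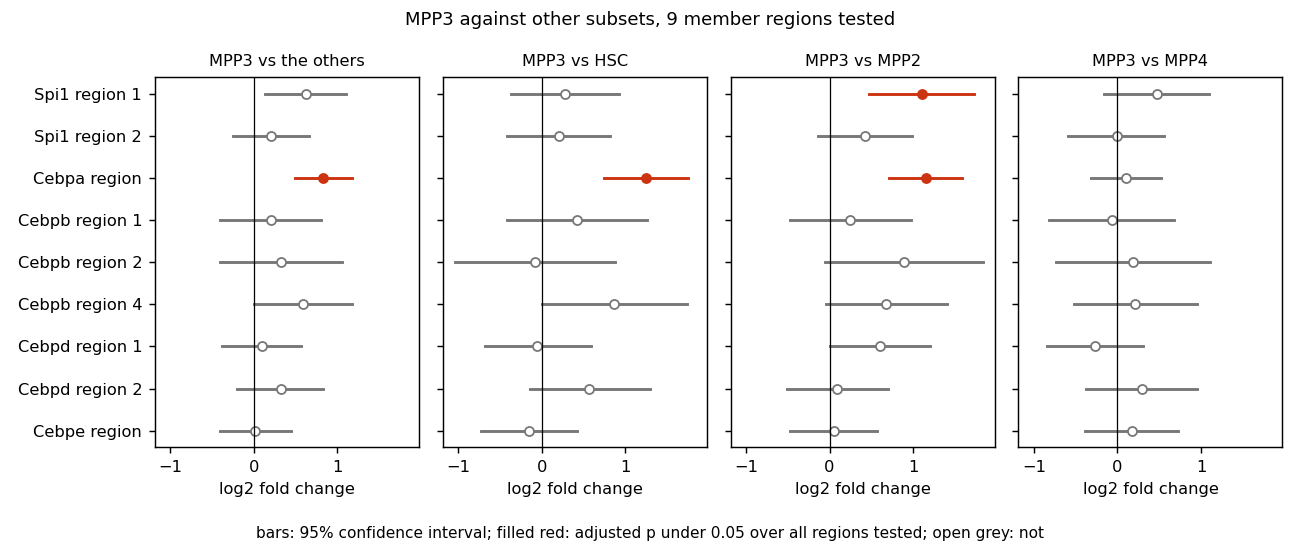
Log2 fold change of the 9 tested member regions in MPP3 against the mean of the other subsets and against each one, with 95% confidence intervals. Filled red points passed an adjusted p of 0.05: the Cebpa region in the first 3 panels (0.83, 1.25 and 1.15) and Spi1 region 1 against MPP2 (1.10); none passed against MPP4.

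The Cebpa region was low in the stem cells and in MPP2. In HSC its region had 30.5, 42.6 and 23.3 CPM in WT recipients (replicates 1 to 3 in this and the following sentences) and 33.9, 35.4 and 61.7 CPM in IκB– recipients. MPP2 was at a like level, with 27.4, 60.0 and 32.7 CPM in WT and 49.5, 36.3 and 39.6 CPM in IκB– recipients. The myeloid-biased MPP3 had 78.8 and, for the summed replicates 2 and 3, 83.3 CPM in WT recipients, and 123, 97.4 and 93.9 CPM in IκB– recipients. Every MPP3 sample was thus above every HSC and MPP2 sample, a separation in either direction that 1.63% and 4.92% of the 13910 regions showed. MPP4 had 68.9, 72.2 and 70.8 CPM in WT and 105, 97.8 and 113 CPM in IκB– recipients, which overlapped MPP3 and also stood above all HSC and MPP2 samples, which groups separated in 0.719% and 1.7% of regions. By group the order was IκB– MPP3 and IκB– MPP4 (105 ± 16 and 105 ± 7.52 CPM, SD, n = 3), WT MPP3 (81.1 ± 3.2, n = 2), WT MPP4 (70.6 ± 1.69), IκB– HSC (43.7 ± 15.6), IκB– MPP2 (41.8 ± 6.9), WT MPP2 (40.0 ± 17.5) and WT HSC (32.1 ± 9.77). The last 4 did not differ beyond their spread, nor did the first 2.

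The difference of the Cebpa region was 1.25 ± 0.25 (SE) between MPP3 and HSC (edgeR adjusted p = 0.00184), a comparison in which 1 of 9 member regions and 2.58% of all regions were called. Between MPP3 and MPP2 it was 1.15 ± 0.22 (edgeR adjusted p = 0.000362), with 2 of 9 member regions and 8.12% of all regions called. Between MPP3 and MPP4 it was 0.10 ± 0.21 with an interval of -0.32 to 0.52 (edgeR adjusted p = 0.999). No region of any gene was called between MPP3 and MPP4 (0% of 13325 by edgeR, and 0 by DESeq2 and limma-voom; 538 had an unadjusted p under 0.05; 2 were called with the replicate block, neither a member). Since MPP4 was level with MPP3, it was then set against the remaining subsets, a comparison added after these values were seen. The Cebpa region was higher in MPP4 than in HSC by 1.15 ± 0.26 (edgeR adjusted p = 0.018) and than in MPP2 by 1.05 ± 0.23 (edgeR adjusted p = 0.00569); 1 of 9 member regions was called in each, against 1.22% and 3.37% of all regions. These comparisons share samples with those of MPP3.

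The excess in MPP3 was of a like size in both hosts. Within WT recipients the Cebpa region was higher in MPP3 than in the other subsets by 0.84 ± 0.26 (SE), within IκB– recipients by 0.82 ± 0.22, and the difference between these was -0.01 ± 0.32 with an interval of -0.66 to 0.63 (edgeR adjusted p = 1). Without the summed WT MPP3 replicates 2 and 3, which leaves 1 library in that group, the value against the other subsets was 0.81 with an adjusted p of 0.0567 (edgeR), so that this call depends on that sample. The MPP4 value against HSC missed the threshold without WT HSC replicate 3 (1.05, adjusted p = 0.0592, edgeR) and with limma-voom (1.11, adjusted p = 0.0718).

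A second counted region lay on the far side of Cebpa, at chr7:35156458-35156836, centred 37354 bp downstream of the start site. It is not a member because Slc7a10, a gene for an amino acid transporter, is nearer (29259 bp against 34530 bp). As background, a myeloid enhancer of Cebpa is known at about this distance downstream in the mouse. Among 12907 regions with a mean of at least 20 CPM, this was the region whose profile over the 8 group means was most like that of the Cebpa promoter region (Pearson r = 0.984 of log2 CPM, n = 8 groups, given as a description, since the groups share libraries and depth). The next was a region in the body of Rgs3, a regulator of G-protein signalling (r = 0.981).

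In the downstream region HSC had 60.9, 31 and 23.3 CPM in WT and 33.9, 70.7 and 30.8 CPM in IκB– recipients. MPP2 had 59, 57 and 21.8 CPM in WT and 53.7, 58 and 23.8 CPM in IκB– recipients. MPP3 had 58.2 and 65.1 CPM in WT and 81.5, 71.9 and 80.5 CPM in IκB– recipients, and MPP4 had 89.5, 79.1 and 42.5 and then 72.7, 90.3 and 91.5 CPM. The subset means were in the same order of low (41.8 ± 19.2 in HSC, 45.6 ± 17.7 in MPP2, SD, n = 6) and high (71.4 ± 9.97 in MPP3, n = 5, and 77.6 ± 18.7 in MPP4, n = 6), but the samples of HSC and MPP3 overlapped. The fitted differences did not pass the test: 0.82 ± 0.29 (SE) for MPP3 against HSC (edgeR adjusted p = 0.125), 0.57 ± 0.25 against MPP2 (0.159), and 0.96 ± 0.30 for MPP4 against HSC (0.102).

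**Figure D3:**
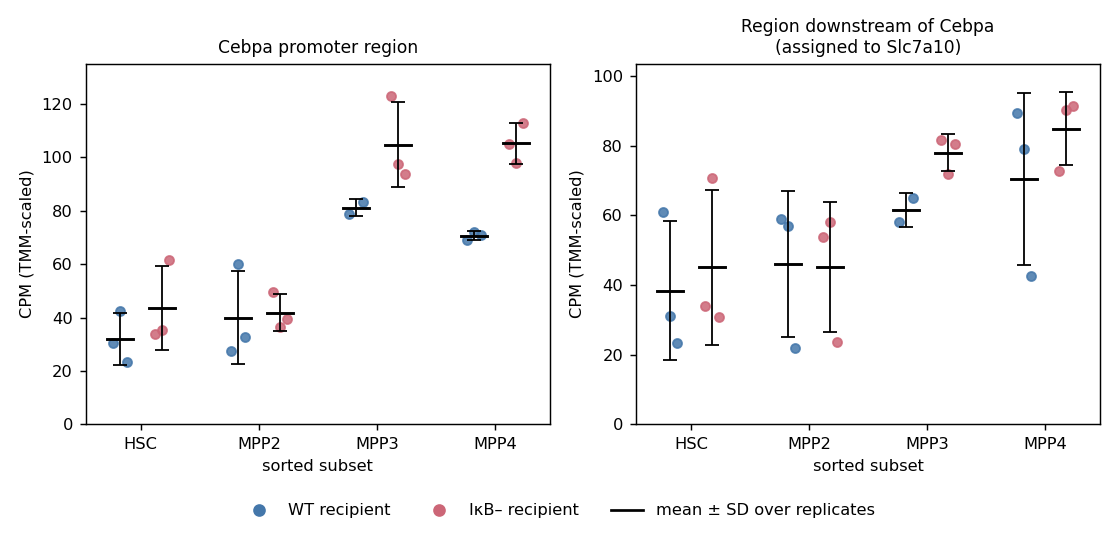
Accessibility in CPM of the Cebpa promoter region (left) and of the region 37354 bp downstream of its start site (right) in each replicate, by sorted subset, with blue points for WT and red points for IκB– recipients and black lines for the mean ± SD. On the left every MPP3 and MPP4 sample, 68.9 CPM or more, lies above every HSC and MPP2 sample, 61.7 CPM or less; on the right the same subsets have the higher means but overlap.

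Spi1 region 1, within the gene body and 623 bp from its end, was called between MPP3 and MPP2. MPP2 had 19.0, 39.0 and 5.45 CPM in WT and 27.5, 21.8 and 26.4 CPM in IκB– recipients. MPP3 had 58.2 and 57.6 CPM in WT and 52.1, 41.7 and 51.0 CPM in IκB– recipients, all above every MPP2 sample. Of all 13910 regions 4.92% separated these subsets in either direction. HSC had 12.2, 38.8 and 60.6 CPM in WT and 20.4, 35.4 and 79.3 CPM in IκB– recipients, a spread that enclosed MPP3. MPP4 had 13.8, 34.4 and 51.9 CPM in WT and 40.4, 30.1 and 48.8 CPM in IκB– recipients, which overlapped MPP3. The difference between MPP3 and MPP2 was 1.10 ± 0.31 (SE), a 2.15-fold difference (edgeR adjusted p = 0.0195). Against HSC it was 0.28 ± 0.32 and against MPP4 0.47 ± 0.31, neither called, and against the mean of the others 0.62 ± 0.24 (edgeR adjusted p = 0.185), or 0.66 with the replicate block (edgeR adjusted p = 0.0296). Without IκB– HSC replicate 3, the library at 79.3 CPM, the last value was 0.77 (adjusted p = 0.0339). The call against MPP2 was lost when any 1 of 4 samples was left out (WT MPP2 replicate 1, IκB– MPP2 replicate 1 or either WT MPP3 sample; 1.02 to 1.14, adjusted p = 0.0524 to 0.0784, edgeR). With the share of counts near gene ends as a covariate it was 0.81 (adjusted p = 0.0723); that share ran from 67.6% to 71.9% in MPP3 and from 65.4% to 68.2% in MPP2.

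Spi1 region 2, further inside the body, was not called in any comparison. It had 30.5, 46.5 and 37.3 CPM in WT HSC and 27.1, 35.4 and 44.1 CPM in IκB– HSC. In MPP2 the values were 40.0, 21.0 and 65.5 CPM with WT and 23.4, 43.5 and 23.8 CPM with IκB– recipients, in MPP3 52.5 and 33.3 and then 53.0, 37.1 and 40.2 CPM, and in MPP4 27.5, 51.6 and 70.8 and then 37.7, 37.6 and 36.6 CPM. The subsets overlapped throughout, and MPP3 against the others was 0.21 ± 0.22 (SE; edgeR adjusted p = 0.758). Against MPP2 it was 0.42 ± 0.28 with an interval of -0.14 to 0.99 (edgeR adjusted p = 0.394), of the same sign as in region 1. The difference between the 2 Spi1 regions was not tested.

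**Figure D4:**
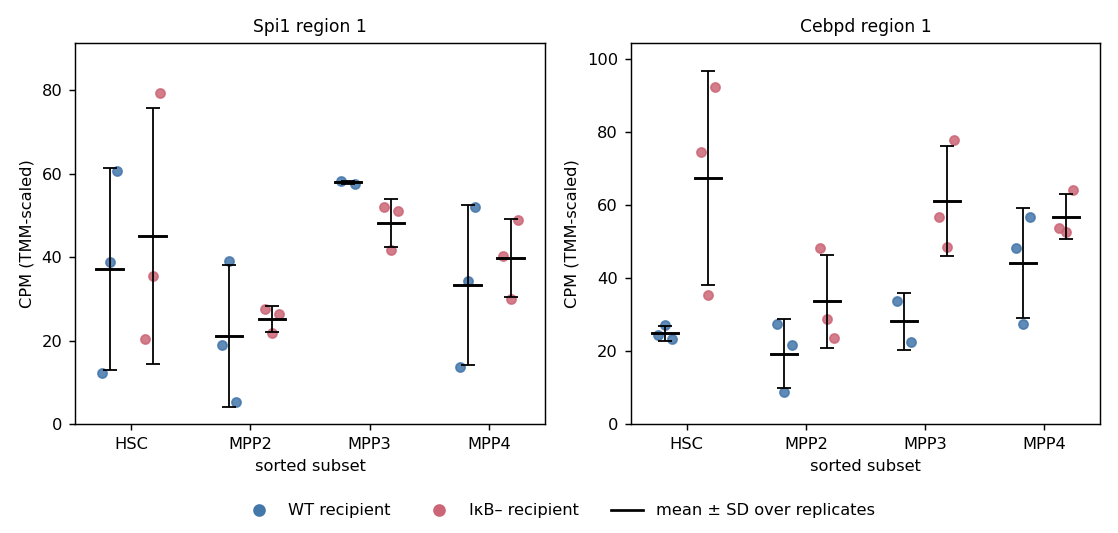
Accessibility in CPM of Spi1 region 1 (left) and Cebpd region 1 (right) in each replicate, by sorted subset, with blue points for WT and red points for IκB– recipients and black lines for the mean ± SD. In Spi1 region 1 the MPP3 samples, 41.7 CPM or more, lie above all MPP2 samples (4.92% of all regions separate these subsets). In Cebpd region 1 the IκB– samples lie above the WT samples in HSC and MPP3 (8.65% and 28.4% of all regions separate the hosts).

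Cebpb, the factor of emergency granulopoiesis, had 4 regions and none was called in any comparison. At its start site (region 2) HSC had 0, 19.4 and 42.0 CPM in WT and 33.9, 8.84 and 123 CPM in IκB– recipients; the count of 0 allows up to 18.3 CPM in that library. MPP2 had 12.6, 15.0 and 21.8 CPM and then 8.26, 36.3 and 39.6 CPM, MPP3 18.8 and 31.8 and then 54.9, 20.9 and 69.7 CPM, and MPP4 41.3, 17.2 and 56.7 and then 35, 30.1 and 15.3 CPM, with WT before IκB– recipients. The highest value, 123 CPM, came from IκB– HSC replicate 3, the same library that was high at Spi1 region 1, and the groups overlapped. MPP3 against the others was 0.33 ± 0.36 (SE) for region 2, 0.20 ± 0.30 for region 1 and 0.59 ± 0.29 for the distal region 4 (edgeR adjusted p = 0.758, 0.84 and 0.348). Region 4 had 29.3 ± 9.63 CPM in MPP3 (SD, n = 5), 17.6 ± 10.6 in HSC, 18.2 ± 4.42 in MPP2 and 27.9 ± 15.3 in MPP4 (n = 6 each), the same rank of high and low subsets as Cebpa but with overlapping samples. Region 3 was too sparse for the test, with 3.88 to 61.9 CPM wherever a count was found and a count of 0 in IκB– MPP4 replicate 3, which allows up to 9.15 CPM.

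The Cebpe region, next to the gene of the late granulocyte factor, had no difference between subsets that passed the test. Its values in WT recipients were 36.6, 73.7 and 117 CPM in HSC, 59.0, 57.0 and 49.1 in MPP2, 50.7 and 78.8 in MPP3, and 48.2, 75.7 and 94.4 in MPP4. In IκB– recipients they were 54.3, 53.0 and 61.7 CPM in HSC, 59.2, 58.0 and 63.4 in MPP2, 54.9, 27.8 and 85.8 in MPP3, and 51.2, 7.53 and 39.7 in MPP4. MPP3 against the others was 0.02 ± 0.21 (SE, 95% interval -0.41 to 0.45). For the Cebpd regions MPP3 against the others was 0.10 ± 0.23 for region 1 and 0.32 ± 0.26 for region 2, neither called.

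Irf8 and Gfi1, which direct monocytic and neutrophil fates, were each covered by 1 thin region. The Irf8 promoter region had 30.5, 31.0 and 23.3 CPM in WT HSC, 25.3, 27.0 and 27.3 in WT MPP2, 24.4 and 19.7 in WT MPP3, and 82.6, 13.8 and 14.2 in WT MPP4. In IκB– recipients it had 13.6, 17.7 and 22.0 CPM in HSC, 30.3, 36.3 and 23.8 in MPP2, 18.9, 18.6 and 18.8 in MPP3, and 21.5, 7.53 and 33.6 in MPP4. WT MPP4 replicate 1 stood far above the rest with 12 counts, and MPP3, at 20.1 ± 2.45 CPM (SD, n = 5), had the lowest mean of the 4 subsets. The Gfi1 region had 3.0 to 40.7 CPM over the 23 replicates, with 6.09, 7.75 and 23.3 CPM in WT HSC, 8.43, 3.0 and 21.8 in WT MPP2, 18.8 and 15.1 in WT MPP3, and 13.8, 24.1 and 33.1 in WT MPP4. With IκB– recipients it had 40.7, 8.84 and 13.2 CPM in HSC, 8.26, 21.8 and 7.93 in MPP2, 17.1, 16.2 and 32.2 in MPP3, and 10.8, 22.6 and 33.6 in MPP4. The 1 nearby region of Irf8 assigned to another gene, Cox4i1, lay 49901 bp from an end of Irf8, with 46.8 ± 33.6 CPM in MPP3 (SD, n = 5), 20.1 ± 22.3 in HSC, 20.2 ± 7.35 in MPP2 and 36.0 ± 19.4 in MPP4 (n = 6 each). Its difference in MPP3 against the others, 0.81 ± 0.33 (SE), was not called (edgeR adjusted p = 0.214), nor was any of the 11 such regions around the 7 genes in any comparison. In a fit without the filter on low counts MPP3 against the others was -0.32 ± 0.31 (SE) for Irf8, 0.29 ± 0.36 for Gfi1 and 0.34 ± 0.37 for Cebpb region 3 (edgeR adjusted p = 0.694, 0.782 and 0.75). No difference was detected in these 3 regions.

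With all regions of a gene summed, 6 of the 7 genes could be tested. Cebpa, Cebpe and Irf8 have 1 region each, so their sums hold the same counts as before. Irf8 passed the count filter in this fit but not in the fit of single regions. Cebpa was called in MPP3 against the others (0.82 ± 0.16 SE, edgeR adjusted p = 0.00571), as were 1.01% of 10353 genes. This repeats the call of its 1 region and is not separate support. Spi1 was called against MPP2 (0.72 ± 0.21, edgeR adjusted p = 0.0431) together with Cebpa, where 3.84% of genes were. The summed accessibility of the 12 member regions, to which the called Cebpa and Spi1 regions belong, ran from 443 to 595 CPM over the MPP3 samples from 416 to 534 CPM over the MPP4 samples and from 322 to 370 CPM over the MPP2 samples, while Irf8 had a lower mean in MPP3 than in MPP2 (20.1 and 28.3 CPM). HSC spanned 250 to 573 CPM, the top value again being IκB– HSC replicate 3.

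The comparison of hosts asked whether the recipient environment altered these regions in WT donor cells. Cebpd region 1, just outside the gene of the acute-phase factor C/EBPδ, was higher in donor cells from IκB– recipients when the effect was averaged over the 4 subsets. In HSC it had 24.4, 27.1 and 23.3 CPM in WT and 74.6, 35.4 and 92.5 CPM in IκB– recipients, and in MPP3 33.8 and 22.7 against 56.8, 48.7 and 77.8 CPM. In both subsets every IκB– sample was above every WT sample; the hosts separated in either direction in 8.65% of all regions in HSC and in 28.4% in MPP3, which has 2 WT samples. MPP2 had 27.4, 9.0 and 21.8 CPM in WT and 48.2, 29.0 and 23.8 CPM in IκB– recipients, and MPP4 had 48.2, 27.5 and 56.7 against 53.9, 52.7 and 64.1 CPM, with overlap in each (12% and 11.7% of all regions did not overlap). Over all samples the mean level was 54.8 CPM with an SD of 20.3 (n = 12) for IκB– hosts, and 29.3 CPM with an SD of 13.1 (n = 11) for WT hosts. The mean effect was 0.97 ± 0.22 (SE), a 1.97-fold difference (95% interval 0.54 to 1.41, edgeR adjusted p = 0.0112), and it was the 1 called of 9 member regions, where 1.73% of all regions were called.

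In HSC the effect of the host on Cebpd region 1 was 1.5 ± 0.47 (SE). It was 0.87 ± 0.44 for MPP2, 1.10 ± 0.39 for MPP3 and 0.43 ± 0.42 for MPP4, none of them called on its own. Its difference between MPP3 and the other subsets was 0.17 ± 0.47 (edgeR adjusted p = 0.989). Without IκB– HSC replicate 3, the library that stood high at 3 member regions, the mean effect was 0.90 (adjusted p = 0.03). It missed the threshold without WT MPP3 replicates 2 and 3 (0.91, adjusted p = 0.0594, edgeR) and without IκB– MPP2 replicate 1 (0.85, adjusted p = 0.0531). Cebpd region 2, inside the gene, had a mean effect of 0.37 ± 0.25 (edgeR adjusted p = 0.526), and the 2 regions summed had 0.66 ± 0.18 (edgeR adjusted p = 0.0769), which was not called. In MPP3 region 2 had 76.7, 53.3 and 53.6 CPM in IκB– against 45.0 and 21.2 CPM in WT recipients, without overlap, as in 28.4% of all regions.

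The Cebpa promoter region was also higher in IκB– recipients in some subsets, but the test was not passed. Every IκB– sample was above every WT sample in MPP3 and in MPP4, where the hosts separated in 28.4% and 11.7% of all regions, and the groups overlapped in HSC and MPP2. The effect in HSC was 0.49 ± 0.43 (SE), that of MPP2 0.14 ± 0.34, that of MPP3 0.39 ± 0.28 and that of MPP4 0.58 ± 0.31, and the mean effect was 0.40 ± 0.17 with an unadjusted p of 0.0248 and an edgeR adjusted p of 0.252. Of the 12 member regions 2 separated the hosts in HSC (8.65% of all regions), none in MPP2 (12%), 6 in MPP3 (28.4%) and 1 in MPP4 (11.7%). In MPP3 the IκB– samples were higher at the Cebpa region, Cebpb region 3 and both Cebpd regions, and lower at Spi1 region 1 and Irf8. The Irf8 samples were also lower in HSC, but that region was too sparse for the test, with a mean effect of -0.27 ± 0.28 in the fit without the filter (edgeR adjusted p = 0.716). For the remaining tested regions the mean effect lay between -0.53 ± 0.30 (Cebpb region 4) and 0.65 ± 0.34 (Cebpb region 2), none called.

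Within single subsets no member region was called for the effect of the host, but with the replicate block Cebpd region 1 was called in MPP3 (1.12, edgeR adjusted p = 0.0463). Over all regions the host effect in MPP3 called 28 in the main fit and 19 to 383 in the other settings, the block among them. The number with the block alone is not given here, and the shares below are those of the main fit. In HSC and in MPP2 0% of all regions were called by edgeR, and none by DESeq2 or limma-voom, with 830 and 486 regions under an unadjusted p of 0.05. In MPP3 0.21% and in MPP4 0.045% of all regions were called. The difference of the host effect between MPP3 and the other subsets called 0% of regions (0 also by DESeq2 and limma-voom; 779 under an unadjusted p of 0.05) and no member.

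**Figure D5:**
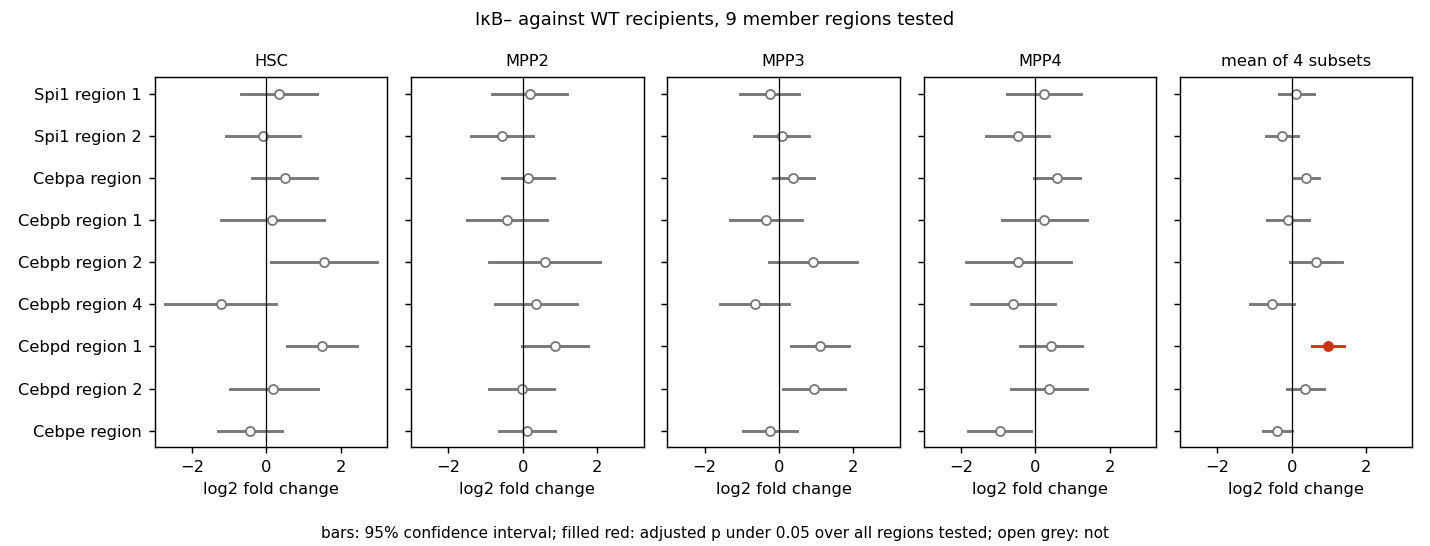
Log2 fold change between IκB– and WT recipients for the 9 tested member regions in each subset and averaged over the 4 subsets, with 95% confidence intervals. The 1 filled red point is the mean effect at Cebpd region 1, 0.97, whose estimate is above 0 in all 4 subsets; no other point passed an adjusted p of 0.05.

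Other genes of blood lineages, in lists compiled with earlier results of these data known, place these regions in context. Among 48 regions of 24 further myeloid regulators 1 was called higher and 2 lower in MPP3 against the others, with a median of 0.01, equal to that of all regions, of which 2.69% were called. The higher one was near Irf1, an interferon response factor (101 ± 33.9 CPM in MPP3, SD, n = 5, against 62.7 ± 21.2 in HSC, 44.9 ± 10.1 in MPP2 and 78.0 ± 21.8 in MPP4; log2 fold change 0.63 ± 0.18 SE, edgeR adjusted p = 0.0488). The lower ones lay inside Etv6 (-1.68 ± 0.33, edgeR adjusted p = 0.00195) and Runx1 (-0.83 ± 0.19, edgeR adjusted p = 0.0104), both regulators of stem cells and several lineages. Against MPP2, 1 region of this list was called higher and 4 lower, with a median of -0.02: the Irf1 region was higher, and regions of Etv6, Runx1, Zeb2 and Irf2 were lower. These values and those of the other lists against MPP2 stand beside 8.12% of all regions called in that comparison.

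Of 17 regions of myeloid cytokine receptor genes none was called in MPP3 against the others, with a median of 0.17. The smallest p was that of a region in Csf3r, the receptor for G-CSF, with 27.4 ± 12.8 CPM in MPP3 (SD, n = 5) and 23.3 ± 7.53 in MPP4, against 9.12 ± 6.83 in HSC and 9.15 ± 6.53 in MPP2. Its difference was 1.07 ± 0.34 (SE) against the others (edgeR adjusted p = 0.0805) and 1.36 ± 0.43 against MPP2 (edgeR adjusted p = 0.0396), the only one of this list called there. Of 13 tested regions of granule, phagocyte and surface genes none was called against the others, the smallest p being that of Itgam (0.78 ± 0.35, edgeR adjusted p = 0.287). Against MPP2, regions near Itgam and in Itgb2, which together encode the integrin CD11b/CD18, were called higher (1.54 ± 0.48 and 1.19 ± 0.38, edgeR adjusted p = 0.0363 and 0.042). The summed level of this list was 618 to 704 CPM in MPP3 and 392 to 2320 CPM in the other subsets, and 280 to 520 and 194 to 608 CPM without Ly6c2, which encodes a monocyte surface antigen. Only 10 of its 25 genes had a counted region: Mpo, Elane and Lyz2, which mark maturing or mature myeloid cells, had none.

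The same comparison also called regions of genes of other lineages. Over all genes, 2.69% of regions were called, and 55 regions were called higher and 304 lower in MPP3 against the others, so lower calls were the more common kind in general. Of 27 regions of erythroid and megakaryocyte genes 0 were called higher and 3 lower in MPP3 against the others: 1 in Vwf, which encodes von Willebrand factor (-2.40 ± 0.53 SE, edgeR adjusted p = 0.00709), and 2 in Zfpm1, the GATA1 cofactor FOG1 (-0.99 ± 0.27 and -1.16 ± 0.34, edgeR adjusted p = 0.0323 and 0.0491). The Vwf region held few counts in MPP3, with 3.33 ± 3.73 CPM (SD). It had 24.2 ± 23 CPM in HSC, 27.1 ± 9.26 in MPP2 and 17 ± 12.1 in MPP4. The median of the list was 0.07, against 0.01 over all regions. Against MPP2, where 8.12% of all regions were called (246 higher and 836 lower), 6 of the list were called lower, which added Pf4, Epor and Gp1ba to these. The summed level of this list ran from 1197 to 1513 CPM in MPP3 and from 1061 to 1692 CPM elsewhere. Of 18 tested regions of lymphoid genes 2 were called higher in MPP3, both of Notch1 (0.82 ± 0.22 and 0.92 ± 0.25, edgeR adjusted p = 0.027 and 0.0333), and the list's median was 0.23. Against MPP2, 3 of this list were called higher and 1 lower, in or near Notch1 and Bcl11a. Like Cebpa, both Notch1 regions were also high in MPP4 (48.7 ± 17.9 and 45.7 ± 15.0 CPM). The lymphoid list summed to 745 to 963 CPM in MPP3 and 621 to 955 CPM elsewhere, and had no counted region for Cd3e, Cd79a or Ms4a1. Of 18 tested regions of gate and stem cell genes 1 was called, the lower Slamf1 region given above. The part of such other cell types in the Cebpa and Spi1 results was not tested.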

How the data were processed

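The authors deposited 1 table of raw counts over regions for 24 ATAC-seq libraries, which was used unchanged. Per the submitters' processing notes, mm10, Bowtie2, SAMtools, Picard, MACS2 2.1.0 and deepTools were used; their settings, the duplicate filter, Tn5 offset and counting tool are not given in the sources used here, and their effect was not examined. Groups and replicate numbers came from the titles. Replicate pairs were compared by chi-square over regions with at least 10 counts: WT MPP3 replicates 2 and 3 did not differ (1.005 per degree of freedom, p = 0.348 over 13126 regions) and were summed; the other 23 pairs gave 1.31 to 4.12.

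Counts were fitted with edgeR 4.0.16 in R 4.3.3 (TMM, filterByExpr by group, robust quasi-likelihood, 15 residual degrees of freedom), and p-values were Benjamini-Hochberg adjusted over 13325 regions. CPM are these counts per 1000000 of scaled library size. A count of 0 has a floor of 3 counts. Alternatives were DESeq2 1.42.0 (size factors or Wald test), limma 3.58.1 (voom), other scalings, no filter, 24 libraries apart, a replicate block, a gene-end covariate, membership within 10 kb, and leaving out each sample.

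Members and lists were chosen with earlier results of these data known. Values per replicate are given for called member regions, for the region nearest each known start site, and otherwise for each gene's highest region. From other lists, up to 5 genes called in MPP3 against the others, or else the one with the smallest p, are named; the values against MPP2 for Itgb2, Pf4, Epor, Gp1ba, Zeb2, Irf2 and Bcl11a were added after they were seen. The 3 regions most like a called one were sought for Cebpa, and the third is not reported here.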

Additional observations from a re-analysis of the deposited data

How the results depend on the processing

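The Cebpa region kept its direction and its call in MPP3 against HSC and against MPP2 in all 9 other settings and all 23 fits without 1 sample. Counts of called member regions changed as follows, and the cause was not tested. Calls over all regions changed with the setting too, and their ranges are given below. Those ranges are not split by setting, so a member count with the block has no share of its own beside it. MPP3 against the others gave 1, but 2 with the replicate block, which was fitted with the 24 libraries apart (Spi1 region 1 added, 0.66, adjusted p = 0.0296; 0.63 and 0.12 with the libraries apart and no block) and 0 to 2 without single samples. MPP3 against MPP2 gave 2, but 1 with the gene-end covariate and 1 to 2 without single samples. The host effect gave 0 in MPP3, but 1 with the block (Cebpd region 1, 1.12, adjusted p = 0.0463); its mean gave 1, and 0 to 1 without single samples. MPP4 against HSC gave 1, but 0 with limma-voom and 0 to 1 without single samples; MPP4 against MPP2 gave 1, but 2 with the block. The 24 libraries apart without the block changed none of these counts. Genes summed gave 1 in MPP3 against the others, and 0 to 1 without single samples.

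The labels number the replicates in each group but do not say whether samples with the same number belong together. Deviations of same-numbered samples correlated at 0.0285 to 0.342 within a recipient type (27 of 36 pairs over 0.1) and at -0.0507 to 0.406 across types (25 of 48), and those of different-numbered samples at -0.309 to 0.125 within a type (1 of 72). The medians were 0.154, 0.126 and -0.0873 in the same order, so samples with the same number shared part of their deviation. Why they did was not tested. The main fit has no replicate block and leaves this shared part in the spread. The calls that changed with a block are given above.

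Called regions over all genes were 359 in MPP3 against the others (85 to 931 without single samples, 245 to 1215 in other settings), 344 against HSC (175 to 799, 276 to 814), 1082 against MPP2 (598 to 1584, 787 to 2200), 231 for the mean host effect (52 to 442, 147 to 482), 28 for the host effect in MPP3 (0 to 146, 19 to 383), 6 in MPP4 (0 to 6, 0 to 9), 0 in HSC (0 to 1, 0 to 0), 0 for MPP3 against MPP4 (0 to 0, 0 to 2), 0 for the difference of host effects (0 to 46, 0 to 29), 163 for MPP4 against HSC (59 to 292, 33 to 401) and 449 against MPP2 (189 to 733, 341 to 944). Of member estimates not called, those near 0 changed sign in some settings: Cebpe from -0.15 to 0.17 and Cebpd region 1 in MPP3 against the others from -0.04 to 0.24. Counts were low in the regions that were not tested: Irf8, Gfi1 and Cebpb region 3 had means of 8.22, 5.65 and 7 counts per replicate.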

Other observations

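The mean host effect was called in 1 of 48 tested regions of other myeloid regulators, 1 of 17 of cytokine receptors, 2 of 27 of erythroid and megakaryocyte genes, 1 of 18 of lymphoid genes, 1 of 18 of gate and stem cell genes and 0 of 13 of granule, phagocyte and surface genes, beside 1.73% of all regions. In the same order of lists the median effects were 0.11, -0.01, -0.31, 0.05, -0.04 and 0.45, beside 0.00 over all regions, and no list was tested as a whole. In donor cells from IκB– recipients a region in Il3ra, which encodes the alpha chain of the interleukin-3 receptor, was higher (0.48 ± 0.13 SE, edgeR adjusted p = 0.0421). Lower were a region near Gfi1b, the erythroid and megakaryocytic relative of Gfi1 (-0.91 ± 0.22, edgeR adjusted p = 0.0252), 2 regions in Zfpm1 (-1.23 ± 0.29 and -0.98 ± 0.23, both with an edgeR adjusted p of 0.0197), 1 in Bcl11a, a lymphoid and globin regulator (-1.20 ± 0.30, edgeR adjusted p = 0.0319), and the Slamf1 region (-1.95 ± 0.44, edgeR adjusted p = 0.0157). These genes were named after their values were seen.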
